A study of Homo sapiens with 8 samples.

Results

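The erythroid gene loci are 38 genes, named in a list, that red blood cell precursors use to make haemoglobin, haem and the red cell membrane. They were taken by name out of 20163 protein-coding genes, by a list that uses no interval but was drawn up with earlier results of these data known. A locus is the body of the gene over all its annotated transcripts plus the 1 kb upstream of each transcription start site (TSS). The members comprised 8 globin genes with the globin chaperone gene AHSP (9 together), 6 blood group genes, 6 genes of the red cell membrane and its skeleton, 3 genes of receptor signalling and terminal maturation, 10 genes of haem synthesis and iron supply, and 4 genes of red cell metabolism.

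Endogenous G4s, which are four-stranded DNA folds of guanine-rich sequence, had been mapped by G4 ChIP-seq in 2 untreated, asynchronously growing human cell lines. K562 is a chronic myelogenous leukemia line that keeps features of the erythroid lineage, and HepG2 is a hepatocellular carcinoma line that keeps features of liver cells. The labels name 3 G4 ChIP libraries, called technical replicates, and 1 input library for each line. Each line is a single tumour-derived culture, so a difference between the lists is a difference between these lines. The files hold no expression values, so the labelled cell types could not be checked against marker genes.

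Each line came with 2 lists of interval positions. The high-confidence list of K562 held 9205 intervals found in at least 5 of 8 replicates, and that of HepG2 held 8805 found in at least 6 of 9. The lower-confidence lists held intervals found in at least 2 replicates, 19249 in K562 and 28387 in HepG2. The study describes these replicates as technical replicates of 3 independent experiments per line, so they are not 8 or 9 independent cultures, and the labelled libraries could not be tied to them. No interval carried a height, a read count or the replicates behind it, so depth is unknown, no spread between replicates could be computed and no test was made. The members were therefore counted and set beside the same count over all protein-coding genes. Absence from a list says that no interval was called there, not that no G4 had formed.

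Haemoglobin is built from α-like and β-like globin chains, which are encoded in a gene cluster each and are switched in the order embryonic, fetal and adult. Each cluster is controlled by distant enhancers, which for the β-like genes form the locus control region upstream of ε-globin. Those enhancers and many erythroid promoters carry sites for the blood factor GATA1, for NF-E2 and for the CACC-box factor KLF1. Haem is made by a chain of enzymes that all cells need, and its iron enters through the transferrin receptor.

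Of the 38 members, 20 (52.6%) held a high-confidence interval in K562, against 37.9% of all protein-coding genes. In HepG2 the count was 12 (31.6%), against 34.5% of all genes. All 12 of those also held a high-confidence interval in K562, which makes 31.6% of the members with both, against 26.3% of all genes. A high-confidence interval in K562 alone was present in 8 members (21.1%, all genes 11.6%), namely HBG2, HBE1, GYPC, SLC4A1, ANK1, SPTB, TRIM58 and XPO7. A high-confidence interval in HepG2 alone was present in 0 members, against 8.15% of all genes.

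The lower-confidence lists kept this order. Any K562 interval was present in 24 members (63.2%, all genes 54.0%), and any HepG2 interval in 17 members (44.7%, all genes 57.6%). A high-confidence K562 interval with no HepG2 interval of either list was present in 5 members (13.2%, all genes 2.91%), which were HBG2, HBE1, GYPC, SPTB and TRIM58. The reverse was present in 0 members, against 3.19% of all genes. Counts of 5 to 8 genes are small, and HBG2 and HBE1 share the same intervals, so they are not 2 separate observations.

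Within 1 kb upstream of a TSS alone, the lines stood closer. There, 16 members (42.1%) had a high-confidence interval in K562 and 12 (31.6%) in HepG2, against 34.6% and 29.6% of all genes. Both lines had one at 12 members, against 23.4% of all genes. The K562-only count was 4 (10.5%), beside 11.2% of all genes, and the HepG2-only count was 0, beside 6.16%. A high-confidence K562 interval with no HepG2 interval in these windows was present at 3 members (7.89%), beside 3.17% of all genes. The 4 members lost from the K562-only set, HBG2, HBE1, GYPC and SLC4A1, held their K562 intervals inside annotated transcripts, away from the upstream windows.

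**Figure D1:**
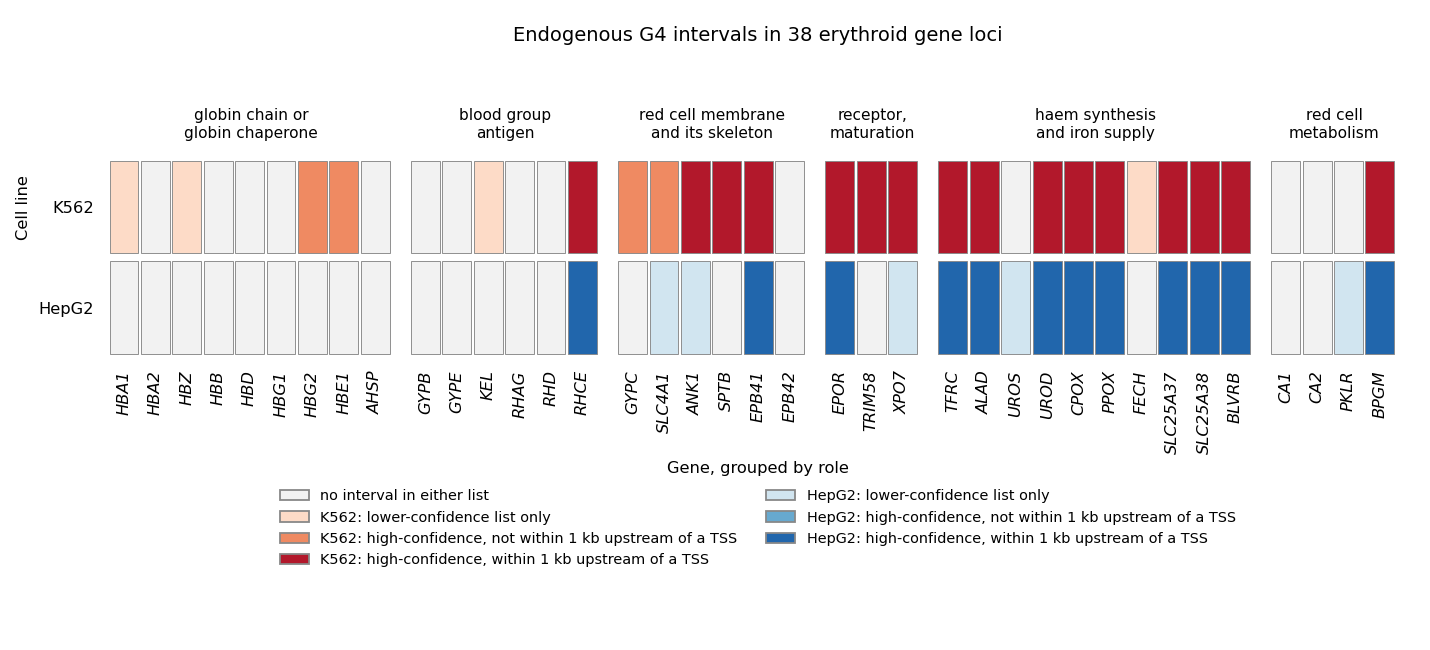
State of each of the 38 members in K562 (upper row) and HepG2 (lower row); columns are genes grouped by role, and the shade gives the strongest call in the locus, from no interval to a high-confidence interval within 1 kb upstream of a TSS. The 8 members with a high-confidence interval in K562 alone lie among the globin, membrane and maturation genes. Of the 10 haem and iron genes, 8 have a high-confidence interval in both lines, beside 26.3% of all genes.

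Among the 9 globin and chaperone genes, 2 held a high-confidence interval in K562 and 0 held any interval in HepG2. Over all genes these shares were 37.9% and 57.6%. HBE1 encodes embryonic ε-globin and HBG2 encodes fetal γ-globin. Both owe their call to long annotated transcripts that start far upstream and run through the cluster, which stretch the loci to 237308 bp for HBE1 and 252418 bp for HBG2. With the canonical transcript alone, neither gene held an interval. The intervals themselves lay upstream of ε-globin, where background knowledge places the locus control region, although the lists carry no such annotation.

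In K562 the first high-confidence interval, chr11:5301907-5302111 on hg19, was centred at -10834 bp from the canonical HBE1 TSS (negative values are upstream). It was 205 bp wide with a GC content of 56.6%. The second, chr11:5309456-5309543, was centred at -18324 bp and was 88 bp wide with a GC content of 58.0%. The lower-confidence K562 list added intervals at -6057 bp and -14804 bp in the same stretch. From 50 kb beyond HBB to 50 kb beyond HBE1, K562 had 2 high-confidence and 5 lower-confidence intervals, and HepG2 had 0 of either kind. The nearest HepG2 high-confidence interval to the HBE1 locus lay 727977 bp away.

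The promoters and bodies of HBB (adult β-globin), HBD (δ-globin) and HBG1 (the other γ-globin) held no interval in any of the 4 lists. The nearest K562 high-confidence interval was 50282 bp from HBB, 36020 bp from HBD and 29820 bp from HBG1. The remaining lower-confidence K562 interval of the window, chr11:5217392-5217574, lay beyond HBB, at 73692 bp from the HBE1 TSS. A further lower-confidence K562 interval of 52 bp, chr11:5526944-5526995, belonged to the far start of the long HBE1 and HBG2 transcripts and lay within 1 kb of a TSS of the olfactory receptor gene OR51B5.

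**Figure D2:**
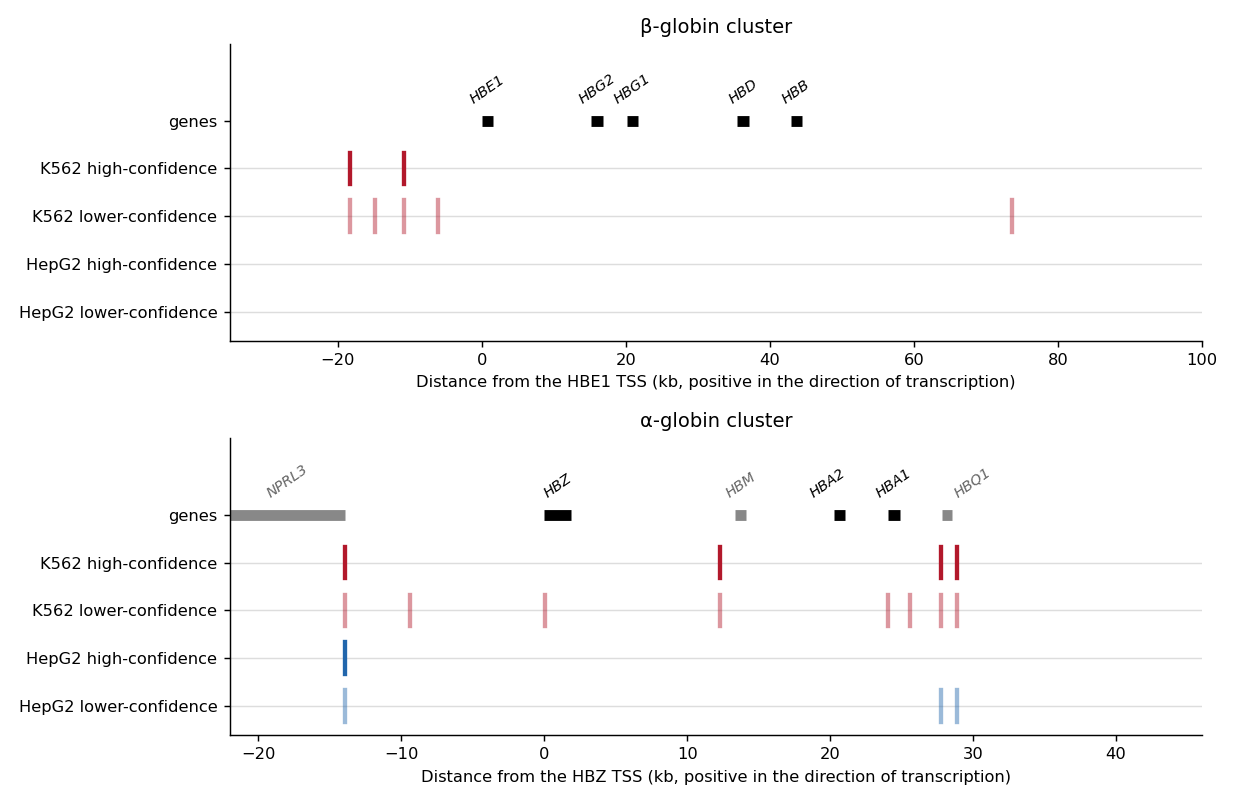
Intervals of the 4 lists along the β-globin (upper) and α-globin (lower) clusters; the horizontal axis is the distance in kb from the canonical TSS of HBE1 or HBZ, positive in the direction of transcription, each vertical line is the centre of an interval, and black bars are member genes and grey bars other genes. K562 has 2 high-confidence intervals upstream of HBE1 and HepG2 none in the window, while at the α-globin cluster K562 has 4 and HepG2 has 1.

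The α-globin cluster held more K562 intervals, most of them outside the member loci. From 20 kb before HBZ to 20 kb beyond HBA1, K562 had 4 high-confidence and 8 lower-confidence intervals, and HepG2 had 1 and 3. HBZ (embryonic ζ-globin) held 2 lower-confidence K562 intervals, of which chr16:202633-202723 covered its canonical TSS with the centre at 35 bp. HBA1 (adult α-globin) held 1, chr16:226606-226720, centred at -16 bp. HBA2, its near-identical copy, held none, and AHSP, the chaperone of free α-globin, held none either. The HBA1 interval is uncertain, because 27.3% of its 50-base stretches occur elsewhere in the genome.

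The genes around HBZ, HBA2 and HBA1 accounted for the high-confidence calls of the cluster. They were singled out after their positions were seen. The promoter of the neighbour NPRL3 was called in both lines, at -13951 bp from the HBZ TSS in K562 and at -13943 bp in HepG2. An interval of 250 bp with a GC content of 93.6% and 8 G4 motifs lay upstream of the α-like globin gene HBM, at -1067 bp from its canonical TSS, in K562 alone. Around HBQ1, which encodes θ-globin, both K562 high-confidence intervals overlapped a lower-confidence HepG2 interval. The HepG2 interval at -85 bp from the HBQ1 TSS was only 9 bp wide, and that at 1073 bp was 158 bp wide.

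Sequences are shown for K562 high-confidence intervals centred over 500 bp from any protein-coding TSS that hold letters of a GATA or NF-E2 site. CACC-box letters were not used for this choice and are not marked. The intervals of the same kind in ANK1 (2), BLVRB (1) and SPTB (1) held neither set of letters and are not printed. Capitals mark AGATAA or TGATAA on either strand (letters of a GATA site) and TGACTCA or TGAGTCA, which are each other's reverse complement (letters of an NF-E2 or AP-1 site). Each is printed 5′ to 3′ on the strand of the named gene, from the GRCh37 sequence, which is hg19. CPOX, called in both lines, is added for comparison.
HBE1 at -10834 bp, chr11:5301907-5302111, minus strand: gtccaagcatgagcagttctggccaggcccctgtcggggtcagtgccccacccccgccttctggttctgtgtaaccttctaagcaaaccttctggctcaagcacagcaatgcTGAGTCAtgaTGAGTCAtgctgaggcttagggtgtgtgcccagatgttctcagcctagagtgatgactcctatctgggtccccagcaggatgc
HBE1 at -18324 bp, chr11:5309456-5309543, minus strand: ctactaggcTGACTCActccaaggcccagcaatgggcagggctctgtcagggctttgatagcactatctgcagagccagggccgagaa
GYPC, chr2:127415544-127415667, plus strand: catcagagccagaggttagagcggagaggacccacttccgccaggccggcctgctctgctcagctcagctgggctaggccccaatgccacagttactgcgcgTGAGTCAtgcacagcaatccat
SLC4A1 intron, chr17:42344083-42344264, minus strand: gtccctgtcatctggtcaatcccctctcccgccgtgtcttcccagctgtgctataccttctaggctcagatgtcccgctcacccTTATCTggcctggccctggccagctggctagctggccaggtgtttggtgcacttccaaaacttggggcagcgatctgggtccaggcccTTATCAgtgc
CPOX promoter, chr3:98312558-98312691, minus strand: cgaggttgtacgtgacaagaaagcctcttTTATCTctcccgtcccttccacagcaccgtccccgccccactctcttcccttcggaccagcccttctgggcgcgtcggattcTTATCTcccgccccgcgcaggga

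The interval at -10834 bp from HBE1 held 2 of the TGAGTCA letters, 3 bases apart, and the interval at -18324 bp held 1. The GYPC interval held 1, and the SLC4A1 and CPOX intervals held 2 sets of GATA letters each. None of the 5 stretches held a G4 motif, defined as 4 G-runs of 3 or more bases, separated by 1 to 7 bases, on either strand. The TGACTCA search was added after these sequences had been seen, and a match is a description of letters, not of a bound factor.

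Among the 6 genes of the membrane and its skeleton, 5 held a high-confidence interval in K562 and 1 in HepG2. Over all genes these shares were 37.9% and 34.5%. GYPC encodes glycophorin C, which anchors the skeleton to the membrane. Its K562 interval of 124 bp was centred 1871 bp downstream of the canonical TSS, in an intron that a noncoding transcript partly uses as an exon. The lower-confidence K562 list held 2 more sites in GYPC, at 1147 bp and at 18027 bp, and HepG2 held none.

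SLC4A1 encodes band 3, the anion exchanger. Its K562 high-confidence interval of 182 bp lay in an intron at 1330 bp from the canonical TSS. HepG2 had 1 lower-confidence interval elsewhere in the gene, at 7153 bp. The SLC4A1 promoter was not called in either line.

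SPTB encodes β-spectrin. It had 2 high-confidence intervals in K562, at -118 bp and at -642 bp, with GC contents of 81.2% and 79.4%, and no interval in HepG2. ANK1 encodes ankyrin-1, which ties spectrin to band 3. In K562 its canonical TSS was called at -27 bp, and a pair of adjoining intervals lay in an intron of a longer transcript at -30772 bp and -30863 bp. HepG2 had a lower-confidence interval of 57 bp at -30898 bp that overlapped the second of these, and none at the canonical TSS. Further lower-confidence K562 intervals in ANK1, at 24791 bp, -25207 bp and -37159 bp, overlapped no HepG2 interval.

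EPB41 encodes protein 4.1, which is made in many cell types. Its canonical TSS was called in both lines, at -114 bp in K562 and at -155 bp in HepG2. An alternative promoter at -27478 bp was a high-confidence site in K562 and a lower-confidence site in HepG2. EPB42, which encodes protein 4.2, held no interval in any list, and its nearest high-confidence interval lay 11775 bp away in K562 and 11819 bp away in HepG2.

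**Figure D3:**
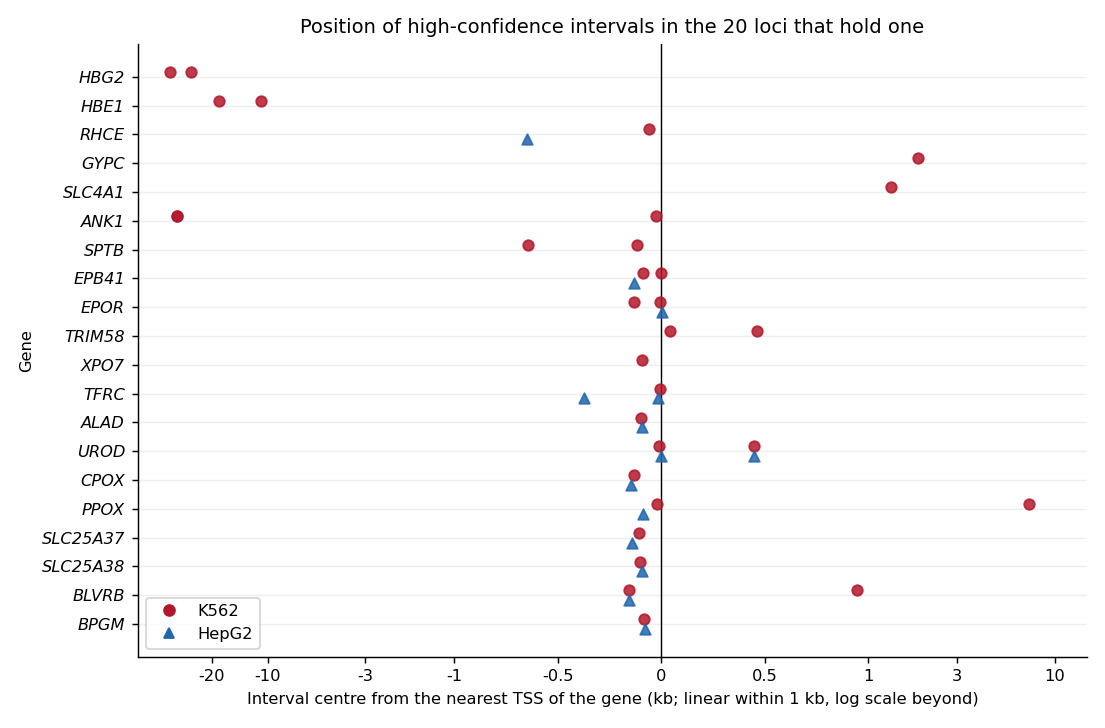
Centres of the high-confidence intervals in the 20 loci that hold one, in kb from the nearest TSS of the same gene on a scale that is linear within 1 kb and logarithmic beyond; circles are K562 and triangles are HepG2. HepG2 intervals lie within 1 kb of a TSS, and K562 intervals extend to HBE1, HBG2, ANK1, GYPC, SLC4A1 and PPOX sites over 1 kb away; since the nearest TSS is used, the EPOR symbols of the lines stand close together although they mark separate sites.

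All 3 genes of receptor signalling and maturation held a high-confidence interval in K562, beside 37.9% of all genes. EPOR encodes the erythropoietin receptor. K562 had 2 high-confidence intervals there, at -33 bp and at 727 bp from the canonical TSS, and the HepG2 lower-confidence list held the first of these sites. The HepG2 high-confidence interval lay elsewhere, at 3079 bp over a coding exon and 3 bp from the start of a short transcript, and overlapped no K562 interval. EPOR is therefore counted in both lines by locus, with different high-confidence sites.

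TRIM58 encodes a ubiquitin ligase of late erythroid maturation. It had 2 high-confidence intervals in K562, at 42 bp and at 462 bp from its TSS, inside a lower-confidence interval of 694 bp, and none in HepG2. XPO7 encodes a nuclear exporter used during erythroid nuclear condensation. Its promoter was called at -91 bp in K562 with high confidence and at -95 bp in HepG2 with lower confidence.

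The haem and iron genes did not divide the lines by locus. Of the 10, 8 held a high-confidence interval in K562 and the same 8 in HepG2, beside 26.3% of all genes with both. These were TFRC, ALAD, UROD, CPOX, PPOX, SLC25A37, SLC25A38 and BLVRB. In each of the 8 at least 1 pair of intervals overlapped between the lines, which was not counted over all genes. ALAD, UROD, CPOX and PPOX encode enzymes of haem synthesis. The K562 and HepG2 centres were -102 bp and -100 bp at ALAD, -169 bp and -184 bp at CPOX, and -35 bp and -103 bp at PPOX. ALAD also held lower-confidence HepG2 intervals at 5852 bp and 13512 bp that K562 lacked.

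UROD had 2 high-confidence intervals in each line. Those at -855 bp in K562 and -856 bp in HepG2 overlapped and lay within 1 kb of a TSS of the neighbour HECTD3. The interval at 520 bp was a high-confidence site in K562 and a lower-confidence one in HepG2, and the interval at -72 bp was the reverse. SLC25A37 and SLC25A38 encode the mitochondrial carriers that supply iron and glycine for haem, and each had 1 high-confidence interval in both lines. The K562 and HepG2 centres were -107 bp and -142 bp at SLC25A37. At SLC25A38 they were 960 bp and 969 bp from the canonical TSS, and -101 bp and -92 bp from another TSS. Lower-confidence intervals lay nearer the canonical SLC25A38 TSS, at 214 bp in K562 and 137 bp in HepG2. The K562 lower-confidence list also held SLC25A37 sites at -1027 bp and 18988 bp that HepG2 lacked, of which the first reaches over a K562 high-confidence interval just outside the locus, and the HepG2 lower-confidence list held 1 at 33019 bp that K562 lacked.

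TFRC, the transferrin receptor gene, was called at -43 bp in K562 and at -81 bp in HepG2. A second TFRC site at 26158 bp, near the start of a shorter transcript, was a high-confidence interval in HepG2 and a lower-confidence one in K562. BLVRB encodes biliverdin reductase B, which acts on haem breakdown products. Its promoter interval, within 1 kb of a TSS of the neighbour SPTBN4, was called at -173 bp in K562 and -174 bp in HepG2, and it had a further intronic interval in K562 alone at 956 bp. PPOX had a second K562 interval of 38 bp in its 3′ UTR, within 1 kb of a TSS of B4GALT3.

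FECH and UROS departed from the other haem enzymes. FECH, which inserts iron into the porphyrin ring, held 1 lower-confidence interval in K562, in an intron at 3246 bp, and none in HepG2. UROS, an earlier enzyme of the pathway, held 1 lower-confidence interval in HepG2, in the 3′ UTR of a transcript, and none in K562.

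Of the 6 blood group genes, 2 held any interval in K562 and 1 in HepG2, beside 54.0% and 57.6% of all genes. RHCE was the only one of the 6 with a high-confidence interval, beside 37.9% of all genes in K562 and 34.5% in HepG2. Its calls lay at the far start of a long transcript that faces MACO1. They were centred at -9428 bp in K562 and at -10016 bp in HepG2 from the canonical RHCE TSS and did not overlap each other, and each lay within 1 kb of a MACO1 TSS. Both sites were nevertheless called in both lines, since HepG2 held the first and K562 the second with lower confidence. With the canonical RHCE transcript alone, the gene held none. KEL held a lower-confidence interval in K562 at -11 bp and none in HepG2. GYPB, GYPE, RHAG and RHD held none in any list.

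Of the 4 metabolic genes, BPGM, which makes the haemoglobin ligand bisphosphoglycerate, was called in both lines, at -125 bp in K562 and at -120 bp in HepG2. PKLR, the pyruvate kinase of liver and red cells, held 1 lower-confidence interval in HepG2, at 414 bp from the canonical TSS and -23 bp from another, and none in K562. CA1 and CA2, the red cell carbonic anhydrases, held none. Their nearest K562 high-confidence intervals lay 107019 bp and 242379 bp away.

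In all, 12 members held no interval in any of the 4 lists. The share of all genes in none of the lists was not counted. Any interval was present in only 54.0% of all genes in K562 and 57.6% in HepG2, so absence is common. For part of the 12 the sequence is repeated in the genome. The share of 50-base stretches of the canonical gene body that also occur elsewhere was 75.1% in HBA2, 52.5% in HBG1, 41.7% in GYPB, 48.4% in GYPE and 51.9% in RHD, and reads that lie wholly in such stretches cannot be assigned to a single copy. The rest of each body is unique. Of the 1 kb upstream of the canonical TSS, the repeated share was 75.1% in HBA2, 61.7% in GYPB and 60.8% in GYPE. It was 51.7% in RHD and 20.7% in HBG1. In the other 7 the share of the gene body was lower, at 1.35% in HBB, 1.31% in HBD and 0% in AHSP. It was 3.74% in EPB42, 5.18% in RHAG, 1.59% in CA1 and 0.310% in CA2. The part of repeated sequence in the absent calls was not tested.

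The 29 K562 high-confidence intervals of the member loci had a median width of 168 bp and a median GC content of 70.0%, beside 195 bp and 70.3% over the whole K562 list. The 14 of HepG2 had medians of 198 bp and 65.5%, beside 169 bp and 65.2% over the 8776 intervals of its list outside the mitochondrial chromosome. Of the 29, 10 (34.5%) overlapped a HepG2 high-confidence interval, beside 51.1% of the whole list. All 10 were among the 21 centred within 500 bp of a protein-coding TSS (47.6%), beside 58.7% of such intervals in the whole K562 list. Of these 21, 16 (76.2%) overlapped any HepG2 interval, beside 83.7%. Of the 14, 10 (71.4%) overlapped a K562 high-confidence interval, beside 53.9% of the whole list. All 14 were centred within 500 bp of a protein-coding TSS, and of such intervals in the whole HepG2 list 72.5% overlapped one. The EPOR interval was the 1 HepG2 high-confidence interval of the 14 with no K562 interval of either list. The other 13 (92.9%) overlapped one, beside 67.1% of the whole list and 86.7% of its intervals within 500 bp of a TSS.

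The member intervals were also split by their distance from a protein-coding TSS. In K562, 8 of the 29 (27.6%) were centred over 500 bp from any protein-coding TSS, beside 24.0% of the whole list. These 8 were the pair upstream of HBE1, the pair in ANK1, and single intervals in GYPC, SLC4A1, SPTB and BLVRB. The ANK1 pair lies in 1 lower-confidence K562 interval, so the 8 are not all separate sites, and the count is small. None of the 8 overlapped a HepG2 high-confidence interval, whereas 27.2% of such K562 intervals in the whole list did, and 1 (12.5%), in ANK1, overlapped any HepG2 interval, beside 1105 of the 2212 in the whole list at that distance. In HepG2, 0 of 14 were centred over 500 bp from a TSS, beside 35.2% of the whole list. The 500-bp limit was chosen after the positions were seen.

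G4 motifs were present in few member intervals. A motif lay wholly inside 4 of the 29 K562 intervals (13.8%, whole list 32.6%) and inside 1 of the 14 HepG2 intervals (7.14%, whole list 20.6%). The 4 were 2 in EPB41, 1 in SPTB and 1 in SLC25A37, and the HepG2 interval was the shared EPB41 promoter. In windows of 300 bp around the centres, the counts rose to 10 of 29 (34.5%, whole list 43.7%) and 3 of 14 (21.4%, whole list 31.2%). With runs of at least 2 G, 26 of 29 (89.7%, whole list 89.6%) and 12 of 14 (85.7%, whole list 79.6%) held a motif.

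Motifs from the members are printed 5′ to 3′ on the G-rich strand, since they show the letters that could fold. Capitals mark the G runs. The first 3 lie in high-confidence intervals and the last 2 in lower-confidence K562 intervals of the globin loci.
EPB41 canonical promoter, both lines, chr1:29241026-29241049, plus strand: GGGGGaGGGGcgcGGGccggcGGG
EPB41 alternative promoter, K562, chr1:29213570-29213591, plus strand: GGGcctagcGGGcGGGGcGGGG
SPTB promoter, K562, chr14:65347253-65347275, minus strand: GGGctGGGGGtGGGGccctcGGG
HBE1 at -14804 bp, K562, chr11:5306058-5306074, minus strand: GGGaGGGtGGGGtGGGG
HBZ canonical TSS, K562, chr16:202696-202722, minus strand: GGGcctggtGGGactGGGGtttGGGGG

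The EPB41, SPTB and HBE1 motifs stood on the strand of the gene, and the HBZ motif stood on the opposite strand. In the 17-base motif upstream of HBE1 each loop was a single base. The interval around it, at -14804 bp, was of lower confidence, while the high-confidence intervals on either side, whose sequences are printed above, held no motif.

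GATA letters lay inside 6 of the 29 K562 member intervals (20.7%, whole list 5.87%) and 2 of the 14 HepG2 ones (14.3%, whole list 4.93%). The K562 intervals with them were in SLC4A1, CPOX, UROD, PPOX, EPOR and BLVRB, 1 interval each. CPOX and BLVRB were the HepG2 ones, so these letters also stood in promoters called in both lines. The K562 intervals of UROD and PPOX also overlapped a HepG2 high-confidence interval, and that of EPOR a lower-confidence one. In windows of 300 bp the K562 count was 6 of 29 (20.7%, whole list 8.35%). The HepG2 count was 3 of 14 (21.4%, whole list 8.69%), so the lines stood level. Of whole-list HepG2 intervals within 500 bp of a TSS, where all 14 lay, 2.92% held GATA letters inside. Among the 21 K562 intervals within 500 bp of a TSS, 5 (23.8%, whole list 3.12%) held GATA letters, and among the 8 farther away 1 did (12.5%, whole list 14.6%). TGACTCA or TGAGTCA lay in 3 of the 29 (10.3%, whole list 4.60%), the 2 upstream of HBE1 and the 1 in GYPC, and in 0 of the 14. All 3 were among the 8 intervals over 500 bp from a TSS (37.5%), where 11.5% of such intervals in the whole K562 list held the letters. Both the search for these letters and the 500-bp limit were chosen after these intervals had been seen. The contrast therefore describes the picked intervals and cannot serve as a test. CACC-box letters, CCNCNCCC on either strand in 300 bp, were frequent throughout, in 23 of 29 K562 windows (79.3%, whole list 85.4%) and 10 of 14 HepG2 windows (71.4%, whole list 73.3%).

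Counts were also split by gene length, whose part in them was not tested. The median member was 23114 bp long, and the median protein-coding gene 27219 bp. Among the 10 members over 50 kb, 8 (80.0%) held a high-confidence interval in K562 and 3 (30.0%) in HepG2, beside 41.0% and 39.2% of all genes of that length. The readthrough loci of HBE1 and HBG2 are 2 of the 10 and share the same intervals. RHCE, counted there in both lines, held its intervals only through a longer transcript. Among the 21 members over 10 to 50 kb the counts were 10 (47.6%, all genes 43.0%) and 7 (33.3%, all genes 38.6%). Among the 7 members up to 10 kb the count was 2 in each line (28.6%), beside 26.2% of all genes of that length in K562 and 22.1% in HepG2.

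A list of 68 other red cell genes, which shares no gene with the members, also had more genes with a high-confidence interval in K562 than in HepG2. In K562 the count was 49 (72.1%, all genes 37.9%) and in HepG2 31 (45.6%, all genes 34.5%), so that in HepG2 this list stood above the share of all genes, where the members stood at 31.6%. An interval in K562 alone was present in 22 (32.4%, all genes 11.6%) and in HepG2 alone in 4 (5.88%, all genes 8.15%). A high-confidence K562 interval with no HepG2 interval was present in 8 (11.8%, all genes 2.91%). The 8 were HBM, TFR2, TMOD1, KCNN4, AQP1, XK, CD47 and HK1. The reverse was present in 1 (1.47%, all genes 3.19%), GPX1. Among 60 liver genes the order was turned, with 6 (10.0%, all genes 37.9%) in K562 and 22 (36.7%, all genes 34.5%) in HepG2. The liver genes thus stood near the share of all genes in HepG2 and below it in K562. Of the 60, 13 (21.7%, all genes 3.19%) had a high-confidence HepG2 interval and no K562 interval, among them the apolipoprotein genes APOA2, APOB and APOC3. The reverse was present in 0, against 2.91% of all genes.

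**Figure D4:**
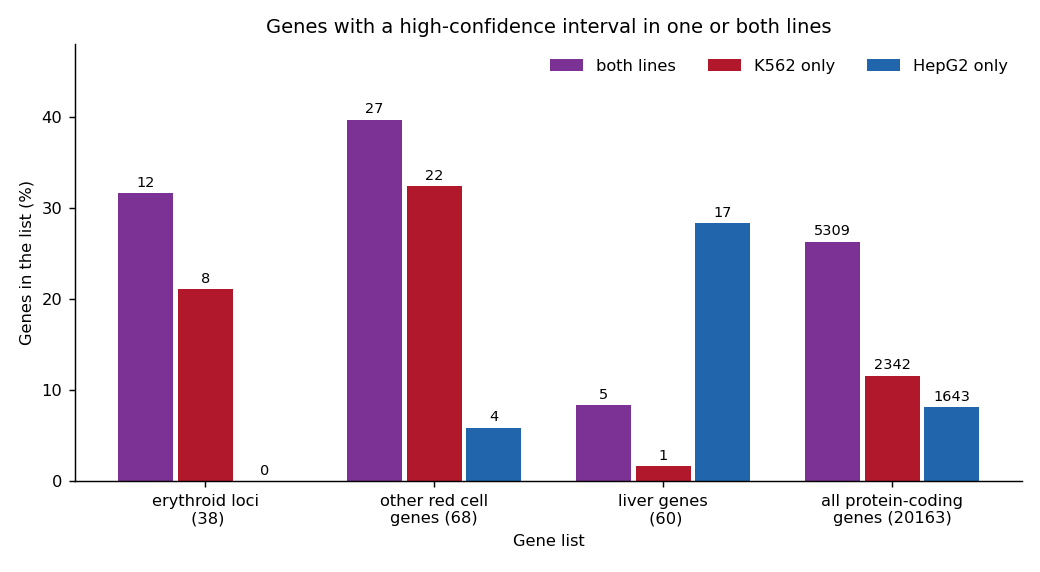
Share of genes (%) with a high-confidence interval in both lines, in K562 only or in HepG2 only, for the 38 members, 68 other red cell genes, 60 liver genes and all 20163 protein-coding genes; the number over a bar is its count of genes. The K562-only share is above the HepG2-only share in both red cell lists, and the liver genes show the opposite order.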

How the data were processed

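Per the labels and the study's methods, the authors used cutadapt 1.16 for trimming, BWA 0.7.15 for alignment to hg19, Picard 2.14.0 and samtools 1.6 for duplicate removal, and MACS2 2.1.1 for peak calling in each replicate at a q-value under 0.05, and combined the replicates with bedtools 2.26.0. The 4 deposited lists hold interval positions only, with no count, signal or score, so the depth per sample is unknown. The 38 members and the comparison lists were chosen with earlier results of these data known.

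Intervals were matched to loci on GRCh37 with GENCODE release 44 lifted to that build, by an overlap of at least 1 bp. The sequence uniqueness of a locus is the share of its 50-base stretches found elsewhere in the genome on either strand. The named genes are all members, the genes of the other 2 lists with a high-confidence interval in 1 line and none in the other, and neighbours with a TSS within 1 kb of a member interval; NPRL3, HBQ1 and the reach of 50 kb (β-globin) or 20 kb (α-globin) around the clusters were chosen after positions were seen. The overlap and motif functions were tested on simulated data and equalled a direct search in 100% of 2000 cases each. The scripts ran under Python 3.11.15 with numpy 2.4.6, pysam 0.24.0 (indexed with samtools 1.23.1), numba 0.67.0 and, for figures, matplotlib 3.10.9. Read-level data, chromatin accessibility and expression were not analysed here, and 1 interval outside the member loci is not reported here.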

Additional observations from a re-analysis of the deposited data

How the results depend on the processing

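With the 1 kb upstream windows alone, members with a high-confidence interval in K562 only went from 8 to 4, and those with such an interval and no HepG2 interval went from 5 to 3 (7.89%, all genes 3.17%), as HBG2, HBE1 and GYPC were lost and ANK1 was gained. In K562 member intervals with a G4 motif went from 4 to 26 with runs of at least 2 G, to 11 with loops of up to 12 bases and to 10 in windows of 300 bp. In HepG2 they went from 1 to 12, 5 and 3. The other 59 recomputed values stayed within 1.5 times the main count. They covered the canonical transcript, protein-coding transcripts, 5 kb upstream, the larger part of the interval inside the locus, intervals of at least 50 bp and a reach of 500 bp to the other line. With the canonical transcript, the K562 count was 17 (44.7%, all genes 36.1%) and the HepG2 count 11 (28.9%, all genes 32.5%), since HBG2, HBE1 and RHCE held their intervals only through longer transcripts. No paired analysis was possible because each line has 1 merged list per threshold and no replicate values. Without read depth, a site missing from a list cannot be told apart from a site below the calling threshold.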
